A study of Xenopus laevis with 2 samples.

Results

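The natriuretic peptide genes and the other cardiac peptide hormone genes were followed in hearts of tadpoles of the frog Xenopus laevis. The set was defined by 6 gene symbols, nppa, nppb, nppc, adm, apln and edn1, and all transcript rows with one of these symbols were kept, homeologs separately. This gave 6 rows for 5 of the symbols, out of 8879 transcript rows in all, while adm was not analysed here. Homeologs are the paired gene copies on the L and S subgenomes of this species. By a RefSeq name table of assembly v10.1, the rows were nppa.S, nppb.L, nppc.S, edn1.S, apln.L and apln.S.

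Sibling embryos were injected at fertilization with 1 of 2 morpholinos, a control morpholino (Control-MO) or one against tcf21 (Tcf21-MO), and their hearts were dissected at stage 44 to 45. Morpholinos are antisense oligomers that can stop an mRNA from being translated or spliced, and tcf21 encodes a transcription factor of the epicardium, the outer cell layer of the heart. Both groups therefore shared injection, and each was 1 library of polyadenylated RNA from a pool of 70 to 100 hearts. No other allele or agent is named in the labels, and they do not say how many clutches were pooled. With 1 library per group there was no replicate check, so the values compare the 2 libraries and not the conditions, and every interval below is a 95% interval for counting error only.

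The libraries held 17636925 reads (Control-MO) and 17767221 reads (Tcf21-MO). Cardiomyocyte markers were abundant in both, in keeping with the tissue label, at 82513 and 60961 CPM (reads scaled to the effective library size) summed over 12 rows. The tcf21 transcript had 1266 and 3738 reads and was 3.01-fold higher (2.82 to 3.21) in the Tcf21-MO library. The labels do not say what the morpholino blocks, so the tcf21 level does not check them. Of 8132 transcripts past a floor of 20 reads (both libraries summed), 217 were at least 2-fold higher and 195 at least 2-fold lower with an interval that excluded a ratio of 1.

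Natriuretic peptides are hormones cut from longer precursors. The products of nppa (atrial natriuretic peptide, ANP) and nppb (B-type natriuretic peptide, BNP) are made mainly by heart muscle cells, promote salt and water loss and relax vessels through the guanylyl cyclase receptor npr1, and their genes are classic markers of chamber muscle and of haemodynamic load. The nppc product (C-type natriuretic peptide, CNP) signals through the related receptor npr2, and npr3 clears all of these peptides. Apelin, the product of apln, acts on the G protein-coupled receptor aplnr, which has a known role in early heart development. Endothelin-1, the product of edn1, is an endothelial vasoconstrictor that acts on ednra and ednrb.

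The transcripts of nppa and nppb were among the most abundant of the heart and those of the other peptides lay far lower. In the Control-MO library nppa.S had 12214 reads, or 796 CPM per kb of transcript (782 to 810), which ranked 158 of the 8879 rows. In the Tcf21-MO library it had 13636 reads, or 905 CPM per kb (890 to 920), at rank 161. The nppb.L row had 8180 reads, or 638 CPM per kb (624 to 652), in the Control-MO library and 12717 reads, or 1010 CPM per kb (992 to 1027), in the Tcf21-MO library, and its rank went from 183 to 151. Both hormones were thus higher in the Tcf21-MO library, nppb by the larger amount.

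The nppc.S row lay near the middle of the table, at ranks 3499 and 3844, and the others were rare. It had 540 and 459 reads, or 16.8 and 14.6 CPM per kb, so nppa.S stood 47.2-fold above it in the Control-MO and 62.0-fold in the Tcf21-MO library. For edn1.S there were 115 and 127 reads, or 5.96 and 6.70 CPM per kb. The apln.L row had 97 and 76 reads, or 2.06 and 1.64 CPM per kb. The apln.S row had 8 and 2 reads, on a transcript of only 278 bp against 2638 bp for apln.L. It was under the floor of 20 reads and entered no count of calls.

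The order of levels per kb differed between the libraries in its first place. In Control-MO hearts nppa.S stood 1.25-fold above nppb.L, whereas in Tcf21-MO hearts it stood at 0.896 times nppb.L. This swap depends on the deposited lengths, 859 bp for nppa.S and 718 bp for nppb.L. Without division by length nppa.S was ahead in both libraries. It had 684 CPM against 458 in the Control-MO and 777 against 725 in the Tcf21-MO library. Below these 2 rows the order per kb was nppc.S, edn1.S, apln.L and apln.S in both libraries. Of the neighbours in this order, the counting intervals overlapped for the 2 apln rows alone, in both libraries, so these were not told apart at this depth.

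**Figure D1:**
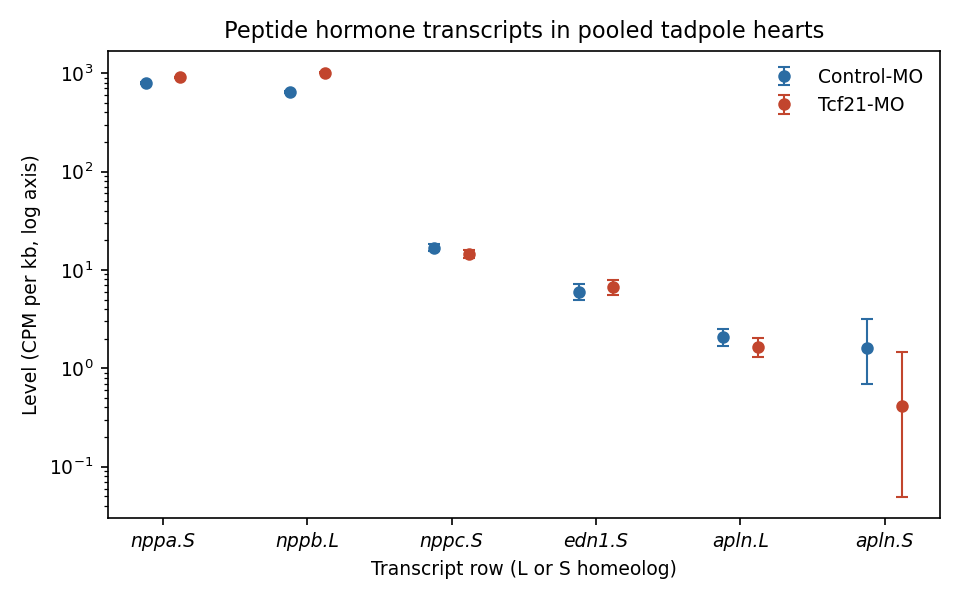
Level of each peptide hormone row in CPM per kb (log axis) in the Control-MO and Tcf21-MO libraries, 1 library each, with bars for 95% Poisson counting intervals. The nppa.S and nppb.L points lie between 638 and 1010 and all others at or below 16.8. Per kb, nppb.L is above nppa.S in the Tcf21-MO library but not in the Control-MO library, while by reads nppa.S is ahead in both.

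At the 2-fold threshold 0 of the 5 rows past the floor were called, where 5.07% of all transcripts past the floor were called in either direction. The median log2 ratio (Tcf21-MO over Control-MO) of these 5 rows was 0.17, against 0.00 over all 8132 transcripts. That median is the value of edn1.S, with 115 and 127 reads, whose interval included a ratio of 1. At 1.5-fold, 1 of the 5, nppb.L, was called higher, and 7.82% of all transcripts were called higher at that threshold and 6.67% lower. Intervals excluded a ratio of 1 for 3 of the 5 rows, and for 4734 of the 8132 transcripts.

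The nppb.L transcript was 1.58-fold higher (1.54 to 1.63) in the Tcf21-MO library. Only 6.63% of transcripts past the floor had a higher ratio. Its ratio was 1.49 when libraries were scaled without the 50 most abundant transcripts and 1.5 when they were scaled without erythroid markers, values just under 1.5-fold. For nppa.S the ratio was 1.14 (1.11 to 1.17), and 30.2% of transcripts had a higher one.

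Below these, nppc.S was 1.15-fold lower (1.02 to 1.31) in the Tcf21-MO library. The edn1.S ratio was 1.12 (0.867 to 1.46) and that of apln.L was 0.799 (0.583 to 1.09). A difference was not detectable at this depth for either. For apln.S the ratio was 0.300 with an interval from 0.0263 to 1.28, which leaves its direction unresolved. Summed, the 2 apln rows had a ratio of 0.758.

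**Figure D2:**
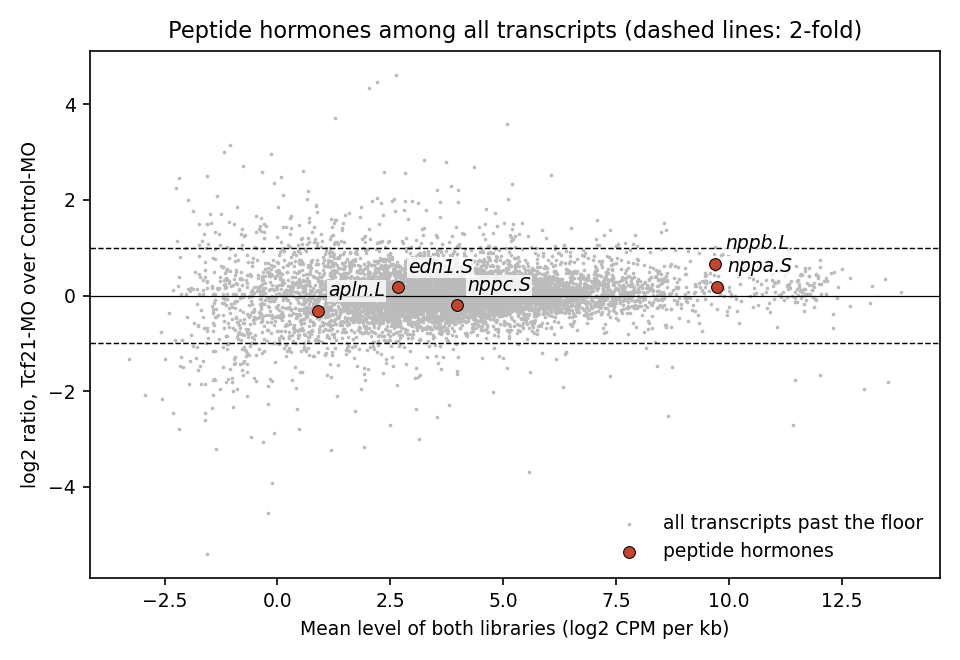
Log2 ratio (Tcf21-MO over Control-MO) against the mean level (log2 CPM per kb) for the transcripts past the floor (grey) and the 5 peptide hormone rows among them (red), with dashed lines at 2-fold. All 5 lie between the dashed lines; nppb.L is the highest of them at 0.66 and apln.L the lowest at -0.32.

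Ratios of 2 rows can be set against each other without any scaling of libraries. The nppb.L ratio was 1.39 times that of nppa.S (1.34 to 1.45), 1.83 times that of nppc.S (1.61 to 2.08) and 1.98 times that of apln.L (1.45 to 2.72). The nppa.S ratio was 1.31 times that of nppc.S (1.15 to 1.49) and 1.01 times that of edn1.S (0.778 to 1.31). Of 15 such pairs among the 6 rows, 7 had an interval that excluded 1, and nppb.L was in 5 of these. Those 5 are all the pairs that hold nppb.L and reuse its counts, so they are not separate evidence. The share of such pairs over all transcripts was not computed. The pairs include apln.S although it was under the floor. Of the 7, 1 was nppb.L against apln.S, at 6.22 with a wide interval (1.24 to 60.1).

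Together nppa.S, nppb.L and nppc.S took 0.119% of all Control-MO reads and 0.151% of Tcf21-MO reads, a scaled ratio of 1.30 (1.28 to 1.33). Within this sum the nppb.L share went from 39.1% (exact interval 38.4 to 39.7) to 47.4% (46.8 to 48.0). The nppa.S share went from 58.3% (57.7 to 59.0) to 50.9% (50.3 to 51.5), and that of nppc.S from 2.58% to 1.71%. The natriuretic reads of the Tcf21-MO library were thus more numerous and held relatively more nppb.

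In the name table nppb and nppa are direct neighbours on each subgenome. The analysed nppb row is the L copy and the analysed nppa row the S copy, so they belong to different subgenomes. The nppa.L and nppb.S genes were not analysed here. The authors' handling of reads that match several copies is not given in the sources used here, and reads of these other copies may be held in part by the rows described.

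Both cardiac hormones departed from the listed cardiomyocyte markers of the same hearts. All 12 measured rows of cardiomyocyte markers were lower in the Tcf21-MO library, 0 of them by 2-fold, and their summed level was 1.35-fold lower. The essential myosin light chain row myl3.L had the ratio nearest to 1, 0.960, and the myosin heavy chain row myh6.S the lowest, 0.626. Set against each of the 12 rows in turn, the nppa.S ratio was 1.18 to 1.82 times and the nppb.L ratio 1.65 to 2.53 times as large, with all 24 intervals above 1. Muscle rows outside this list were not all lower, since ckm.L had a ratio of 1.22 (1.21 to 1.23) and csrp3.L one of 1.13 (1.10 to 1.16), close to nppa.S and below nppb.L. The log2 ratios of the skeletal-type rows tnnc2.S, tnni2.S and casq1.S were 0.45, 0.41 and 0.40. Other skeletal rows went the other way, tnnt3.S at -0.11 and myog.S, with 20 and 7 reads, at -1.42. For nppc.S 4 of 12 intervals lay above 1 and 0 below. These row-by-row comparisons were chosen after the values were seen, and the 24 for nppa.S and nppb.L reuse the same 2 hormone rows. Both hormone ratios were already above 1 and all 12 marker ratios below it. The 24 intervals above 1 follow from that and are no separate evidence.

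When libraries were scaled to the cardiomyocyte marker reads, nppb.L was 2.14-fold and nppa.S 1.54-fold higher in the Tcf21-MO library. This scaling raised the median log2 ratio of all transcripts to 0.44, so nppb.L stood 0.66 and nppa.S 0.18 above that median, as in the TMM-scaled values. It also turned nppc.S and apln.L to ratios of 1.17 and 1.08, and the calls over all transcripts to 711 higher and 89 lower. In bulk tissue, fewer cells of a type and less RNA per cell cannot be told apart.

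**Figure D3:**
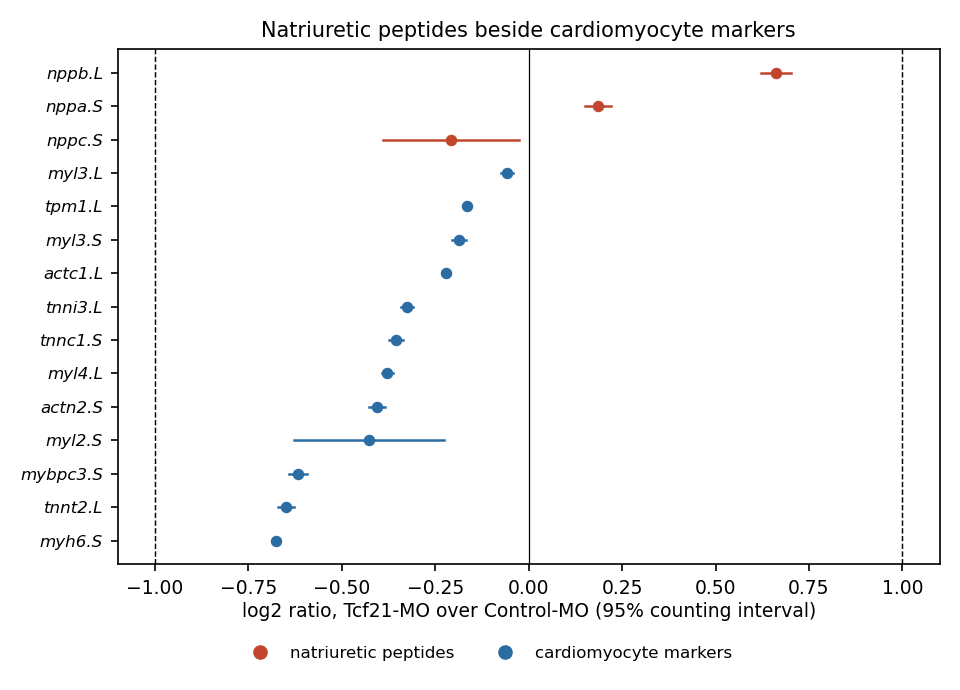
Log2 ratio (Tcf21-MO over Control-MO) for the natriuretic peptide rows (red) and 12 cardiomyocyte marker rows (blue), with bars for 95% counting intervals and dashed lines at 2-fold. The nppb.L and nppa.S points lie above 0, at 0.66 and 0.19, while nppc.S and all cardiomyocyte markers lie below 0.

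Other cell types also differed between the libraries. Summed erythroid markers were 3.81-fold lower in the Tcf21-MO library, with 14 of 15 rows called, and summed epicardial markers were 2.03-fold higher, with 5 of 10 rows called, tcf21 among the listed genes. Most of the epicardial reads were from the keratin row krt8.S, with 14343 and 26935 reads and a ratio of 1.91. Of the 10 rows 8 had log2 ratios above 0 and 2 below. Those below were sema3d.S at a ratio of 0.918 (0.789 to 1.07) and upk1b.S at 0.890 (0.738 to 1.07). Endothelium, a known source of edn1 and apln, had a summed level of 332 and 339 CPM over 7 rows, a ratio of 1.02 (0.983 to 1.06), and 0 of its rows were called. Smooth muscle and fibroblast markers were 1.62-fold higher in sum (1.60 to 1.64), with 2 of 6 rows called higher and 1 lower. Most of these reads were from the collagen rows col1a2.L and col1a1.S, at ratios of 2.57 and 2.12. Log2 ratios lay above 0 for 3 of the 6 rows and below for 3. The lower rows were cnn1.L (cnn2 in the name table) at a ratio of 0.857, pdgfra.L at 0.516 and acta2.L at 0.353. Leukocyte markers were 1.29-fold higher in sum (1.23 to 1.35), with 1 of 4 rows called higher. The skeletal muscle list of 7 rows summed to 3281 and 3966 CPM, most of it from the creatine kinase row ckm.L, a gene that heart muscle also expresses, with 56592 and 67750 reads. Of its 3 rows past the floor, 1 had a log2 ratio above 0 and 2 below, with 0 called higher and 1, myog.S, called lower. The 5 rows of the skeletal muscle determination genes myod1, myog and myf5 had at most 20 reads each per library. The part of the cell type marker shifts in the hormone ratios was not tested.

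By level and ratio together, the transcripts nearest to nppa.S over the 2 libraries were ubc, which encodes polyubiquitin, at a Euclidean distance of 0.0415 (log2 CPM per kb), the myosin light chain row myl6.L at 0.134 and the ATP synthase row atp5j.L (atp5pf in the name table) at 0.149. Those nearest to nppb.L were the cytochrome c oxidase subunit rows cox7c.L at 0.0944 and cox6c at 0.154, and the lactate dehydrogenase row ldhb.S at 0.164. Their ratios were 1.45 for cox7c.L (1.39 to 1.5), 1.82 for cox6c (1.77 to 1.88) and 1.35 for ldhb.S (1.32 to 1.38). With 2 points per transcript this likeness is only a match of level and ratio.

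Most receptors and enzymes of the natriuretic system were close to even or modestly higher in the Tcf21-MO library. Of 11 rows past the floor, 1 was called higher and 0 were called lower. The median log2 ratio was 0.34, against 0.00 over all transcripts, of which 2.67% were called higher and 2.4% lower. That median is the value of the rare row dpp4.S, with 24 and 30 reads, whose interval included a ratio of 1. The ANP and BNP receptor row npr1.L had 689 and 869 reads and a ratio of 1.28 (1.16 to 1.42). The clearance receptor row npr3.L, with 177 and 233 reads, had a ratio of 1.34 (1.10 to 1.64), and the CNP receptor row npr2.L, with 1805 and 1768 reads, one of 0.998 (0.934 to 1.07). All 3 receptors were well below nppa.S and nppb.L per length, the most abundant being npr2.L at 24.2 CPM per kb in both libraries.

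The single called row of this list was pcsk6.L, a proprotein convertase that in mammals activates the ANP-cleaving protease corin. It had 59 and 179 reads and was 3.07-fold higher (2.29 to 4.22). The related convertase row pcsk5.S, with 81 and 130 reads, had a ratio of 1.63 (1.23 to 2.18), and furin, the convertase that cuts the BNP precursor in mammals, had 2337 and 2412 reads and a ratio of 1.05 (0.993 to 1.11). The amidating enzyme gene pam, whose product finishes adrenomedullin, had ratios of 1.16 for the S row (1.10 to 1.23) and 0.934 for the L row (0.863 to 1.01). The carboxypeptidase row cpe.L had a ratio of 1.13 (1.04 to 1.23). The ratio of the peptidase row dpp4.S, with 24 and 30 reads, was 1.27 (0.720 to 2.28). The endothelin-converting enzyme row ece1.L was the most abundant of the list, with 4847 and 6683 reads, and had a ratio of 1.40 (1.35 to 1.46).

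In the apelin and endothelin system, receptor rows were lower or even and 1 ligand was higher. Of 7 rows past the floor, 1 was called higher and 0 lower, where 2.67% of all transcripts were called higher and 2.4% lower. The median log2 ratio of the 7 rows was -0.12. The called row was edn3.L, endothelin-3, a ligand best known from neural crest development. It had 4 and 26 reads and a ratio of 6.0 (2.30 to 26.1). It was thus rarer than edn1.S in both libraries. The adrenomedullin receptor row calcrl.L, with 774 and 801 reads, had a ratio of 1.05 (0.954 to 1.16). The row of the receptor component crcp.S, with 588 and 369 reads, had a ratio of 0.639 (0.560 to 0.729), and ednrb, with 8 and 6 reads, was under the floor.

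The apelin and endothelin receptors differed by homeolog. For aplnr, the L row had 3043 and 2876 reads and a ratio of 0.963 (0.914 to 1.01), while the S row had 1829 and 1155 reads and a ratio of 0.643 (0.597 to 0.693). The L ratio was 1.5 times the S ratio (1.37 to 1.64). For ednra, the S row had 2611 and 2356 reads and a ratio of 0.919 (0.869 to 0.972), while the L row had 2241 and 1415 reads and a ratio of 0.643 (0.601 to 0.688). The L ratio was 0.700 times the S ratio (0.641 to 0.764). In both receptors the copy with the lower level per kb was the one with the lower ratio. Among 251 homeolog pairs of the table with at least 1000 reads per row, 5.98% were at least as far apart as the aplnr pair and 8.76% as the ednra pair.

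Summed over homeologs, aplnr was 1.19-fold lower (1.14 to 1.24) and ednra 1.26-fold lower (1.21 to 1.32). Both receptors far exceeded their ligands, since aplnr.L stood at 75.3 CPM per kb in Control-MO hearts and ednra.S at 62.6, against 2.06 for apln.L and 5.96 for edn1.S.

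**Figure D4:**
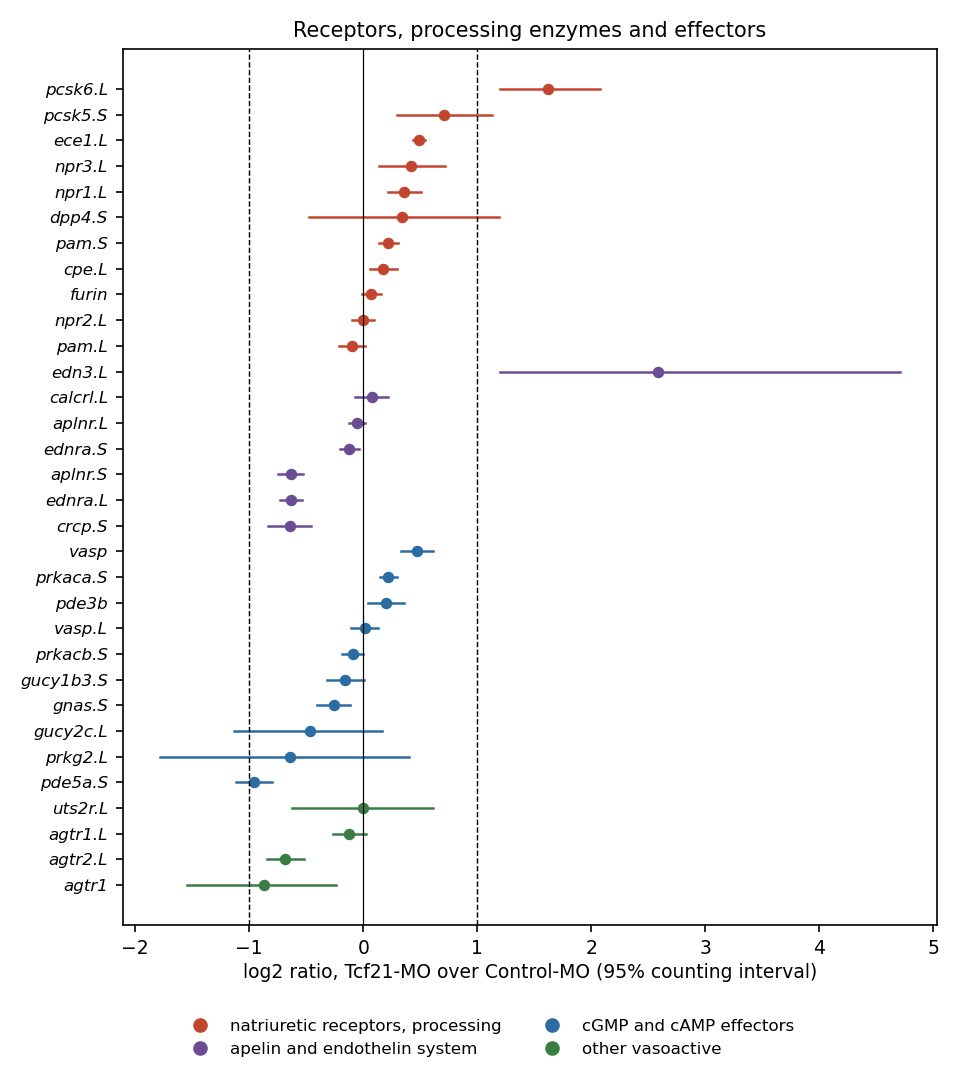
Log2 ratio (Tcf21-MO over Control-MO) for rows past the floor in 4 lists of receptors, processing enzymes, effectors and other vasoactive genes (colours), with bars for 95% counting intervals and dashed lines at 2-fold. Only pcsk6.L and edn3.L lie beyond 2-fold higher, at 1.62 and 2.58, and pde5a.S is the lowest at -0.95.

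Downstream effectors of cyclic nucleotides did not pass 2-fold. Of 10 rows past the floor 0 were called in either direction, with a median log2 ratio of -0.12. Only 5.07% of all transcripts past the floor were called, so 0 of 10 does not set this list apart. The lowest was pde5a.S, the phosphodiesterase that breaks down cyclic GMP, with 991 and 502 reads and a ratio of 0.516 (0.462 to 0.575). The highest was the row vasp, a substrate of cyclic GMP-dependent kinase, with 706 and 960 reads and a ratio of 1.38 (1.26 to 1.53), while the row vasp.L had a ratio of 1.01. Protein kinase A subunit rows prkaca.S and prkacb.S stood at ratios of 1.16 (1.11 to 1.23) and 0.939 (0.881 to 1.00).

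Genes of other vasoactive hormones were mostly rare, and those measured were angiotensin and urotensin receptors. In this list 4 of 12 rows passed the floor and 0 were called, where 5.07% of all transcripts past the floor were called. The median log2 ratio of the 4 rows was -0.40. The angiotensin receptor rows agtr1.L, with 823 and 743 reads, and agtr2.L, with 829 and 507 reads, stood at ratios of 0.920 (0.832 to 1.02) and 0.623 (0.557 to 0.696). A further row listed as agtr1, with 60 and 32 reads, had a ratio of 0.547 (0.342 to 0.848), and the urotensin receptor row uts2r.L, with 47 and 46 reads, one of 0.997 (0.649 to 1.53).

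Genes of the regulated secretory pathway, through which peptide hormones are stored and released, were lower where they were called past the floor. Of 6 rows past the floor, 2 were called lower and 0 were called higher, where 2.4% of all transcripts were called lower and 2.67% higher. Both called rows had fewer than 100 reads over both libraries. A further row, scg3.L, with 4 and 13 reads, was under the floor and had a ratio of 3.06 (1.02 to 13.9). The median log2 ratio of the 6 rows was -0.79. The convertase row pcsk2.L, with 27 and 7 reads, had a ratio of 0.278 (0.0971 to 0.622), and the vesicle priming row cadps.L, with 66 and 19 reads, one of 0.299 (0.166 to 0.495). The chromogranin row chga.S, with 333 and 327 reads, had the highest ratio, 1.00 (0.856 to 1.17). These genes are also used by neurons and pituitary cells. In the Tcf21-MO library all 8 neural marker rows past the floor were lower, 5 of them by 2-fold, and the summed level of the neural list went from 57.6 CPM (Control-MO) to 34.0 CPM (Tcf21-MO). The row syt1.L, with 353 and 206 reads, is in both the secretory and the neural list, so these lists are not independent. The summed level of pituitary peptide markers was 6.44 CPM and 1.48 CPM, with pomc.L at 38 and 2 reads, pomc.S at 35 and 1 reads and the 4 rows of prl and gh1 at 0. Their part in the secretory gene ratios was not tested.

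Transcription factors known from other vertebrates to act on the nppa and nppb promoters differed in both directions. Of 27 rows past the floor, 2 were called higher and 1 lower, where 2.67% of all transcripts were called higher and 2.4% lower. The median log2 ratio of the 27 rows was -0.06, and 12 rows lay above 0 and 15 below. Rows of the activator nkx2-5 had ratios of 0.60 (0.524 to 0.686) for the L copy and 0.625 (0.592 to 0.660) for the S copy. The muscle coactivator row myocd.L, with 1138 and 553 reads, was the called lower row, at a ratio of 0.495 (0.446 to 0.548).

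The GATA factor rows gata4.L, gata5.L and gata5.S stood at ratios of 1.21 (1.13 to 1.29), 1.42 (1.35 to 1.49) and 1.2 (1.15 to 1.25), and gata4.S at 1.10 (0.992 to 1.21). Both rows of gata6 were lower, at 0.862 (0.824 to 0.903) for the L copy and 0.944 (0.901 to 0.989) for the S copy. The called higher rows were those of known repressors, tbx2.S at 4.63-fold (4.13 to 5.21), with 353 and 1606 reads, and hey1.S at 2.05-fold (1.86 to 2.26), with 635 and 1277 reads. The other tbx2 copy, tbx2.L, had 496 and 492 reads and a ratio of 1.01 (0.890 to 1.15). The repressor rows tbx3.L and tbx3.S had ratios of 1.22 (0.923 to 1.63) and 1.01 (0.762 to 1.34). The rows mef2a.L, hand1.L and mef2c.L had ratios of 0.628 (0.568 to 0.694), 0.629 (0.584 to 0.677) and 0.638 (0.559 to 0.727). At 1.5-fold, 2 rows of this list were called higher, tbx2.S and hey1.S. At that threshold 6 of the 27 rows were called lower, the rows of myocd, nkx2-5, mef2a, hand1 and mef2c. Over all transcripts past the floor, 7.82% were called higher and 6.67% lower at 1.5-fold. The ratios of activating factors thus lay on both sides of 1, but those past 1.5-fold were all lower.

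Genes linked to wall stress and to the fetal cardiac programme, with which nppa and nppb are usually grouped, did not share a direction. Of 16 rows past the floor, 1 was called higher and 1 lower, where 2.67% of all transcripts were called higher and 2.4% lower. The median log2 ratio of the 16 rows was 0.09. The immediate early row fos.S, with 54 and 153 reads, was 2.87-fold higher (2.10 to 4.01), and jun.L, with 760 and 1251 reads, had a ratio of 1.68 (1.53 to 1.84). The called lower row was listed as myh7 but is myh15 in the name table, a symbol outside this list. It had 23 and 5 reads and a ratio of 0.238 (0.0658 to 0.595). The actin row acta1.S, with 11559 and 5754 reads, had a ratio of 0.507 (0.491 to 0.523), but reads of other actins may be counted in it. The stretch-sensor row csrp3.L, with 10886 and 12049 reads, had a ratio of 1.13 (1.10 to 1.16), and the load-responsive row ankrd1.L had only 15 and 21 reads and a ratio of 1.41 (0.701 to 2.97).

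**Figure D5:**
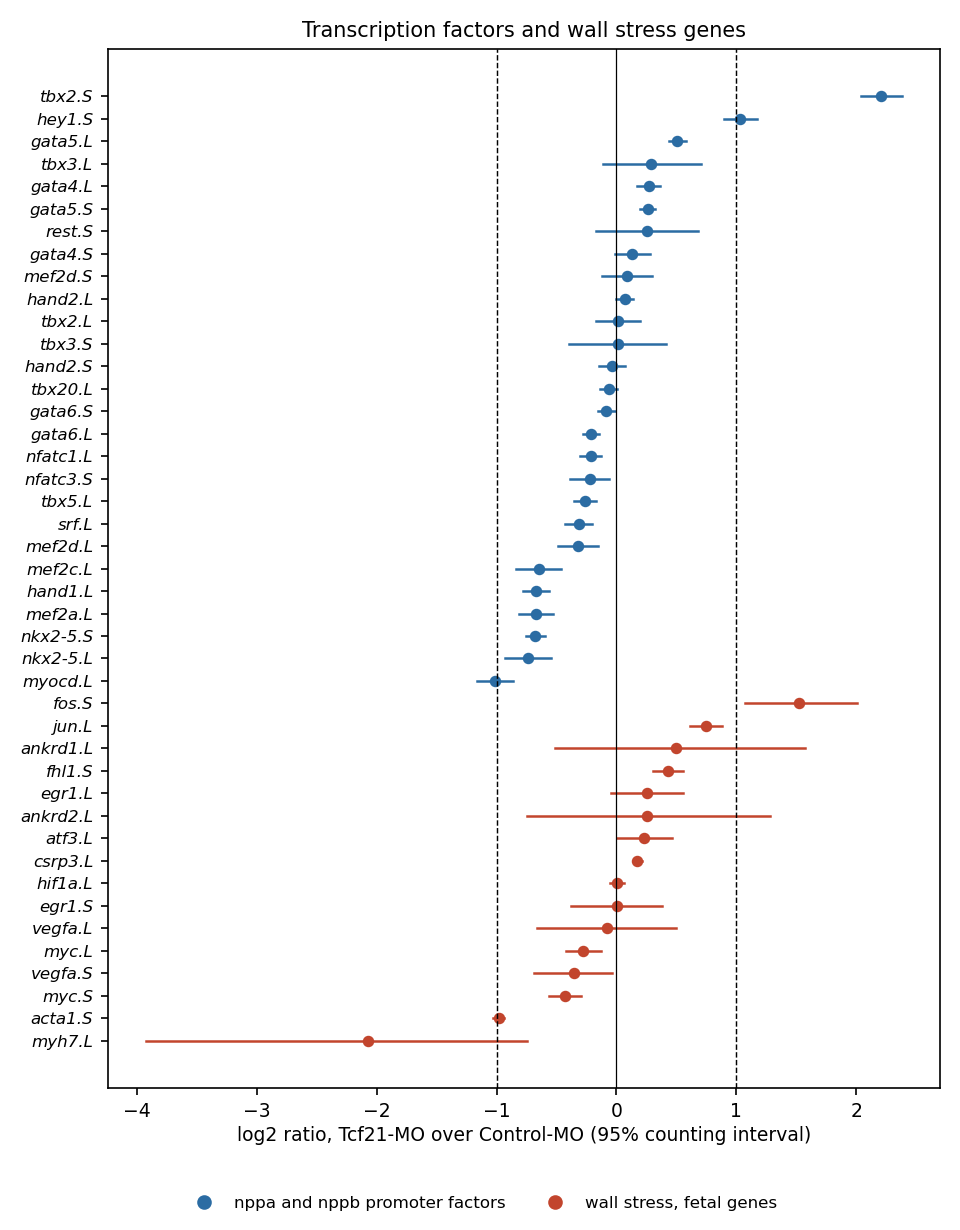
Log2 ratio (Tcf21-MO over Control-MO) for transcription factors of the nppa and nppb promoters (blue) and for wall stress and fetal programme genes (red), with bars for 95% counting intervals and dashed lines at 2-fold. The tbx2.S point lies highest at 2.21 and the row labelled myh7.L (myh15 in the name table) lowest at -2.07.

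Across the 7 lists, 5 of 81 rows past the floor were called higher and 4 lower, against 2.67% and 2.4% of all transcripts. These counts were 4 and 6 when libraries were scaled without the 50 most abundant transcripts or without erythroid markers, and 7 and 3 when scaled to cardiomyocyte marker reads.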

How the data were processed

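Polyadenylated RNA of pooled hearts was measured in 1 Control-MO and 1 Tcf21-MO library, grouped by the label that names the morpholino. The authors deposited raw whole-read counts for 8879 RefSeq transcripts with transcript lengths, per the file headers. The submitters' processing notes name Bowtie2 2.0.0.6, SAMtools 0.1.18.0 and CASAVA 1.7. Not given in the sources used here are the reference build, the counting rule, the use of strand and the treatment of multiply matching reads. Fold changes and normalized values made by the authors were left out.

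Effective library sizes came from TMM factors (edgeR 4.0.16, R 4.3.3). Ratios had 0.5 counts added and exact conditional binomial intervals, and levels had exact Poisson intervals (SciPy 1.17.1). Ratios between rows had exact conditional odds-ratio intervals. The floor was 20 reads over both libraries. Levels between genes were compared as CPM per kb. A call needed a 2-fold difference and an interval that excluded 1. No p-value was computed, because each group had 1 library. Amplified reads that carry no molecular identifier are not independent molecules, and intervals cover counting error only. The intervals and calls were tested on simulated counts with counting error only, total count scaling and planted changes larger than those of nppa.S and nppb.L. Such a test cannot check TMM scaling, differences as small as theirs or variation between libraries.

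The name table matched 8315 of the 8879 rows, all 6 hormone rows included, and served for names and gene order only. The members and lists were chosen with earlier results of these data known. Named were all hormone rows, tcf21, receptors and processing enzymes, called rows, the highest and lowest row of each list, and the 3 transcripts nearest to each hormone row with at least 1000 reads. One listed gene is not reported here and was left out of its list. Other named rows were chosen after their values were seen. Alternatives covered scaling (DESeq2 1.42.0 size factors among them), the floor, added counts, the threshold and the handling of homeologs.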

Additional observations from a re-analysis of the deposited data

How the results depend on the processing

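Of 54 recomputed hormone log2 ratios, 45 stayed within the counting interval of the reported value and 9 did not. The 45 include the settings that changed only the floor, which cannot alter a hormone ratio and so say nothing of its stability. They also include the summed apln rows, set against apln.L. The settings that added 1 or 5 counts, also among the 45, could hardly move a row of many reads. With 5 counts added nppa.S stayed at 0.19. All 9 others came from changes of scaling. Under these changes nppa.S left its interval with every scaling except DESeq2 size factors. The nppa.S value was 0.15 with total count scaling. Without the 50 most abundant transcripts nppa.S was 0.10 and nppb.L 0.58, and without erythroid markers they were 0.11 and 0.58. Scaling to cardiomyocyte marker reads gave 0.62 for nppa.S, 1.10 for nppb.L, 0.23 for nppc.S and 0.61 for edn1.S, and 711 higher and 89 lower transcripts; this scaling divides by a marker sum that was itself lower in the Tcf21-MO library. Under it nppc.S and apln.L were above 0, and nppb.L passed 2-fold. Over all transcripts, 214 were higher and 196 lower with DESeq2 size factors, but the lower ones were the more numerous with total count scaling (196 and 213), without the 50 most abundant transcripts (180 and 239) and without erythroid markers (180 and 238). A floor of 100 reads left 106 lower transcripts, 1 of them in the hormone pathway lists, since fewer rows were tested. At 1.5-fold, 636 transcripts were higher and 542 lower, and 18 rows of the pathway lists were lower. No paired analysis was possible because each group was 1 library, and for the same reason no library could be left out. At the reported TMM scaling, depth limits edn1.S, apln.L and apln.S, whose intervals included a ratio of 1. For edn1.S this also depends on scaling. Its ratio was 1.52 (1.17 to 1.98) when libraries were scaled to cardiomyocyte marker reads.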
